A study of Rattus norvegicus and Bos taurus with 12 samples.

Results

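The genes described here encode the oxygen-binding protein myoglobin (Mb), 3 creatine kinases (Ckm, Ckmt2 and Ckb) and adenylate kinase 1 (Ak1). They were found by symbol in the tables of adult rat ventricular myocytes (ARVM) and of bovine cardiac fibroblasts (Cfib). All 5 were among the 7052 genes listed for ARVM and 0 were among the 2115 listed for Cfib. Both tables hold genes that the authors selected by a p-value for the same contrast, and the 5 genes were chosen by symbol with the ARVM fold changes already known. Their own values are therefore given as a description, without a test, and a gene that is not listed may have any level and any change. The groups did not overlap for any listed gene, 7052 of 7052 in ARVM and 2115 of 2115 in Cfib (100% each), so separation of the groups marks no gene out.

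Myoglobin stores oxygen in heart and slow skeletal muscle and eases its diffusion towards the mitochondria. Creatine kinases move a phosphate group between ATP and creatine, so that phosphocreatine can carry it from the mitochondria to the sites of ATP use. The sarcomeric mitochondrial isoform (Ckmt2) works at the inner membrane, the muscle isoform (Ckm) at the contractile apparatus and the calcium pump, and the brain isoform (Ckb) predominates in brain, smooth muscle and the fetal heart. Adenylate kinase 1 turns 2 molecules of ADP into ATP and AMP and forms a parallel route of phosphate transfer.

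RNA sequencing compared ARVM of Sprague Dawley rats in 2 states, with 3 libraries each. Freshly isolated ARVM (replicates con4, con5 and con6) were taken untreated, and PH-CM ARVM (replicates ha2, ha209 and ha211) had been kept for 7 days in medium conditioned by fibroblasts of calves with pulmonary hypertension (PH). The fibroblast libraries, 3 of each kind, came from cultured, low-passage right ventricular fibroblasts of neonatal control calves (CO) and of calves made hypertensive by reduced atmospheric pressure. No allele or transgene is named for any group, the ages of the rats are not given, and the treatment labels name cow serum from low or high altitude, where the study's methods give the groups above. No ARVM cultured without PH-CM were analysed here, so time in culture and the medium cannot be told apart. Nothing says whether the ARVM libraries came from separate rats, so the spread between them may be technical.

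Whole reads were recovered from the ARVM values, with 12122463 to 17926137 reads on listed genes in freshly isolated ARVM and 15939590 to 18842171 in PH-CM ARVM. Cardiomyocyte markers were abundant in the freshly isolated cells. Of the 12 sought, 11 were listed and all 11 were called lower in PH-CM ARVM, and their summed normalized count was 1325520 to 1340260 in freshly isolated and 144008 to 178898 in PH-CM ARVM. Fibroblast markers were higher for 10 of 10, with a sum of 1748 to 2322 before and 99570 to 144176 after culture. All 6 listed macrophage and leukocyte markers of 9 sought were higher, with sums of 171 to 244 and 6541 to 9821. Of the smooth muscle markers 6 of 8 were higher and 2 lower (sums of 65891 to 72704 and 79892 to 86340). Des, 1 of the 2 lower, made up most of the freshly isolated sum, with means of 67582 before and 45309 after culture. Among the 6 higher, Acta2 went from 293 to 10008 and Tagln from 257 to 21540, so the sums hide their rise. The smooth muscle sums mainly follow Des in freshly isolated ARVM and are not read as an amount of smooth muscle cells. Of the endothelial markers 7 of 8 were lower and 1 higher (9568 to 11358 and 3755 to 4262). The 4 listed erythroid markers of 7 were lower (2140 to 2548 and 3.39 to 23.3), with Hba1, Hbb and Hbb-b1 at 0 in every PH-CM library, and the 3 listed neuron and Schwann cell markers of 8 were higher (91.8 to 178 and 672 to 1016), with Nefl at 0 in every freshly isolated library. In bulk RNA, a change in cell numbers and a change in RNA per cell, also of markers within myocytes, cannot be told apart. By immunostaining, the paper reports α-smooth muscle actin and periostin in ARVM kept in PH-CM. The part of these markers in the values below was not tested.

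The promoters are shown so that the muscle genes can be set beside the brain isoform and the ubiquitous mitochondrial isoform, whose values differed from theirs. Each is the 250 bases before the annotated start, 5′ to 3′ on the gene's own strand, from the RefSeq annotation of the rat build GRCr8. Of 6 genes sought 5 were found, Ak1 being the gene without an entry, and the ubiquitous isoform that the files call Ckmt1b stands there as Ckmt1. The stretches lie at chr7:110647743-110647992 (minus strand) for Mb, chr1:88189211-88189460 (plus strand) for Ckm, chr2:24845512-24845761 (minus strand) for Ckmt2, chr6:136553465-136553714 (minus strand) for Ckb and chr3:128784232-128784481 (plus strand) for Ckmt1. Capitals mark the matches to the motifs described after the sequences.
Mb: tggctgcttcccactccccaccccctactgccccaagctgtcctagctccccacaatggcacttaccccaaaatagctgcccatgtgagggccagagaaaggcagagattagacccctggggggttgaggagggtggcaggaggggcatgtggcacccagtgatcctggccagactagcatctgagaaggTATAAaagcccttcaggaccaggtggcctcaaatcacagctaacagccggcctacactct
Ckm: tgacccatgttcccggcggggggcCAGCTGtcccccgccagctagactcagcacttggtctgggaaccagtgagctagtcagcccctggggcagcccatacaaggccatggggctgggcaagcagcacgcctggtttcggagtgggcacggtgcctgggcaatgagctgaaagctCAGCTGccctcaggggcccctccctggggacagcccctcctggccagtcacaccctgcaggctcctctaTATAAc
Ckmt2: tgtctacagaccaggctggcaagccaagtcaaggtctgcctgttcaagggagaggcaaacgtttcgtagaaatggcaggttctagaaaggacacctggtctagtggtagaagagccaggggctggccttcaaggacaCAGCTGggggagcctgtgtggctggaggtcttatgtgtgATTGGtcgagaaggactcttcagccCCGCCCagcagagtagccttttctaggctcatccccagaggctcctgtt
Ckb: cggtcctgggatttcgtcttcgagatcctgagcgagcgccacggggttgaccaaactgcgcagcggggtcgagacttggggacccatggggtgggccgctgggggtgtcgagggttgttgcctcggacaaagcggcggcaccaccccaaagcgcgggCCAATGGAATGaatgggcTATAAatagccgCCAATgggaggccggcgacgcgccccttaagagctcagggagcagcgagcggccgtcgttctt
Ckmt1: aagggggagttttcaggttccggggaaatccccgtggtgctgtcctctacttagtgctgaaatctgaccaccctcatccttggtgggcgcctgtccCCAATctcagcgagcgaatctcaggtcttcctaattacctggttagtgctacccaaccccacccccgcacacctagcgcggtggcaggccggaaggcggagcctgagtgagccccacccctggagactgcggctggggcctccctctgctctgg

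Both strands were searched for 6 strings. TATAA, the core of a TATA box, stood 60 bases before the start in Mb, 75 before it in Ckb and 6 before it in Ckm, and occurred in 24.1% of 27457 rat promoters of this length. CAGCTG, an E-box of the kind bound by muscle basic helix-loop-helix factors, stood at 226 and 75 bases in Ckm and at 113 bases in Ckmt2, against 11.9% of all promoters. CCAAT was found in Ckb (93 and 63 bases), in Ckmt1 (154 bases) and, on the other strand, in Ckmt2 (74 bases), against 34.3%. CATTCC, the core of the M-CAT element, was found in Ckb (88 bases, on the other strand and next to the upstream CCAAT), against 11.8%, and GGGCGG, a GC box, in Ckmt2 (49 bases, on the other strand), against 32.4%. AAGGTCA, the estrogen-related receptor half-site, occurred in 3.77% of all promoters and in none of these windows. The GC content was 58.4% for Mb, 65.6% for Ckm, 55.6% for Ckmt2, 64.8% for Ckb and 62.0% for Ckmt1, beside a median of 52.0% over all promoters. A match of letters is a description of the sequence and not evidence of binding.

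Myoglobin had the deepest deficit of the 5 genes in PH-CM ARVM. Its normalized read count was 355111, 349731 and 324164 in the freshly isolated libraries con4, con5 and con6. It was 3302, 4412 and 2883 in the PH-CM libraries ha2, ha209 and ha211. As for 100% of the listed ARVM genes, the groups did not overlap, and the lowest freshly isolated library of Mb stood 73.5 times above the highest PH-CM library. The means were 343002 ± 16535 and 3533 ± 790 (SD, n = 3 each), so that 1.03% of the freshly isolated level was left, a 97.1-fold difference and a log2 fold change of -6.62 (SE 0.15). Mb alone took 1.85%, 1.84% and 1.75% of the reads on listed genes before culture and 0.0232%, 0.0321% and 0.0202% after it. In the order of log2 fold changes, from the most negative, Mb stood at place 13 of the 7052 listed genes, behind genes such as Hbb and Hba1, which encode hemoglobin chains.

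**Figure D1:**
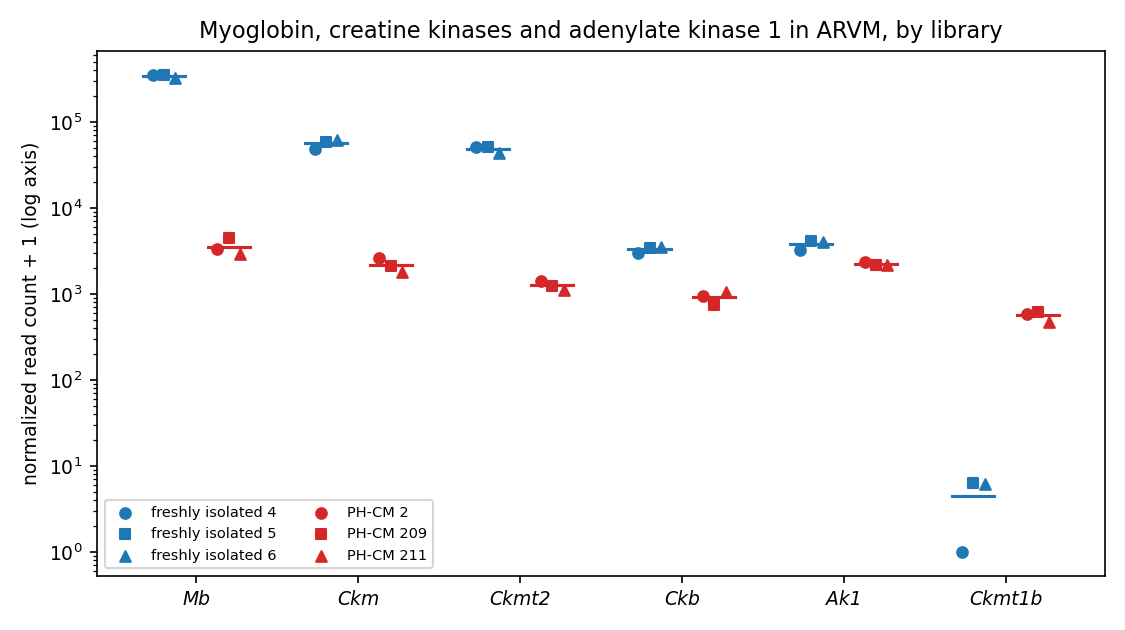
Normalized read count plus 1, on a log axis, for each gene in the 3 freshly isolated (blue) and 3 PH-CM (red) ARVM libraries, with lines at the group means. Mb, Ckm and Ckmt2 lie far apart between the groups, Ak1 stands between 3238 and 4120 in freshly isolated and between 2150 and 2338 in PH-CM cells, and Ckmt1b runs the other way.

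The sarcomeric mitochondrial isoform Ckmt2 came next. It read 50427, 50773 and 43893 normalized counts in freshly isolated ARVM and 1426, 1240 and 1101 in PH-CM ARVM. The groups were separate, as for every listed gene, and ha2 was the highest PH-CM library. The means of 48365 ± 3876 and 1256 ± 163 (SD, n = 3 each) gave a log2 fold change of -5.27 (SE 0.10), with 2.60% of the freshly isolated level left.

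The muscle isoform Ckm, which regenerates ATP beside the myofibrils, read 49016, 58652 and 61689 in freshly isolated ARVM. In PH-CM ARVM it read 2615, 2097 and 1794. The freshly isolated library con4 was the lowest of its group, and ha2 was again the highest PH-CM library. The log2 fold change was -4.71 (SE 0.14), between means of 56452 ± 6617 and 2169 ± 415 (SD, n = 3 each), and 3.84% of the freshly isolated level was left.

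The brain isoform Ckb, a cytosolic form, was lower too, but by far less. It read 3002, 3392 and 3533 in freshly isolated ARVM and 940.0, 739 and 1050.3 in PH-CM ARVM. PH-CM library ha211, which was the lowest for Mb, Ckm and Ckmt2, was the highest for Ckb. The means were 3309 ± 275 and 909.9 ± 158 (SD, n = 3 each), a log2 fold change of -1.87 (SE 0.13) with 27.5% left.

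The ubiquitous mitochondrial isoform Ckmt1b, which is not 1 of the 5 genes but is the counterpart of Ckmt2 in non-muscle tissues, went the other way. It had 0, 5 and 5 reads in the freshly isolated libraries and 772, 720 and 561 reads in the PH-CM libraries. In normalized counts these were 0, 5.36 and 5.17 against 584, 621 and 475. All PH-CM libraries were high and all freshly isolated libraries were near the lower limit of counting. The log2 fold change was 7.36 (SE 0.69) on the log2(value + 1) scale, which depends on the added constant because of the near absence of reads before culture. Without con4 it was 6.48.

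The ratio of muscle to brain isoform within each library removes the library's scaling, while transcript length was not corrected, so that only its change between groups is read. Ckm over Ckb was 16.3, 17.3 and 17.5 in freshly isolated ARVM and 2.78, 2.84 and 1.71 in PH-CM ARVM. All PH-CM ratios lay under all freshly isolated ratios, with library ha211 the lowest. No share over other gene pairs was computed, and both genes were listed because they differed, so nothing is read from this separation. On the log2 scale the ratio went from 4.09 ± 0.05 to 1.25 ± 0.41 (SD, n = 3 each), a difference of -2.84 (SE 0.24) and a 7.15-fold drop.

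For the mitochondrial pair, Ckmt2 over Ckmt1b was 2.44, 1.996 and 2.32 in PH-CM ARVM. In freshly isolated ARVM the log2 ratio of counts plus 1 was 15.62, 12.96 and 12.80, the highest value being the library without a Ckmt1b read. The PH-CM values on that scale were 1.29, 0.996 and 1.21. The log2 difference of -12.63 (SE 0.92) moves with the constant added and was -11.72 without con4. The summed normalized count of Ckm, Ckmt2, Ckb and Ckmt1b went from 108130 ± 5259 to 4894 ± 597 (SD, n = 3 each). Between the muscle-type isoforms, the log2 ratio of Ckm over Ckmt2 changed by 0.56 (SE 0.16), and that of Mb over Ckm by -1.91 (SE 0.25).

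**Figure D2:**
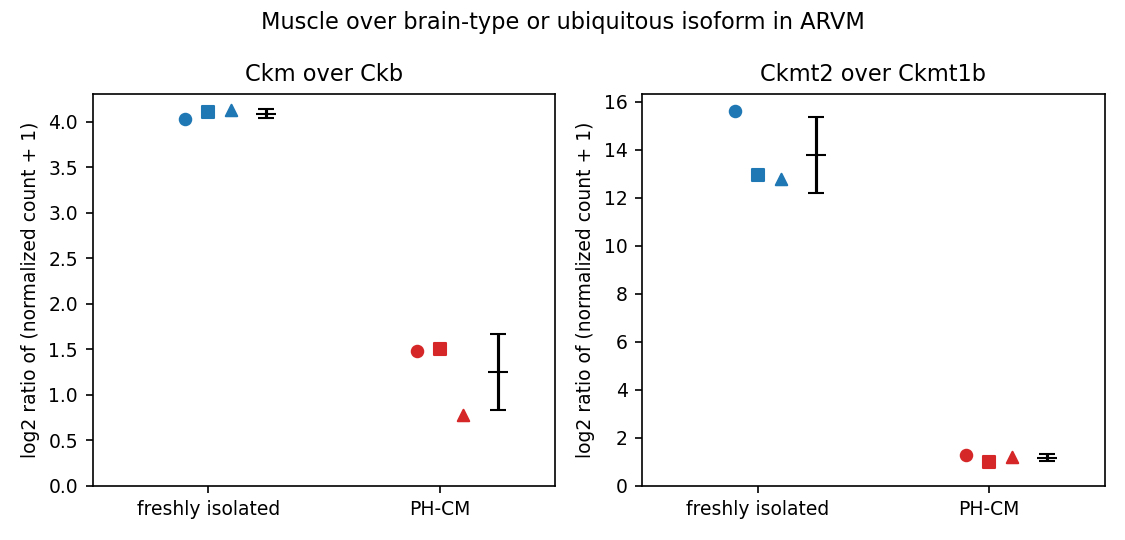
Log2 ratio of normalized counts plus 1 in each ARVM library for Ckm over Ckb (left) and Ckmt2 over Ckmt1b (right), in freshly isolated (blue) and PH-CM (red) cells, with the mean and SD of 3 libraries in black. Ckm over Ckb sits near 4.09 before and 1.25 after culture, and Ckmt2 over Ckmt1b drops from at least 12.80 to 1.29 or less.

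Ak1 differed least. It read 3238, 4120 and 3975 in freshly isolated ARVM and 2338, 2150 and 2169 in PH-CM ARVM. The lowest freshly isolated library, con4, stood 1.38 times above the highest PH-CM library. The means of 3778 ± 473 and 2219 ± 104 (SD, n = 3 each) gave a log2 fold change of -0.76 (SE 0.10), with 58.7% left, and 22.0% of all listed genes had a larger fall. At the other end, 0.170% had a larger fall than Mb, 0.340% than Ckmt2, 0.610% than Ckm and 6.61% than Ckb. These places move with the constant added and the tool, from 5 to 33 for Mb, 12 to 65 for Ckmt2 and 19 to 90 for Ckm, counted from the largest fall. Together the 5 genes took 2.40%, 2.46% and 2.36% of the reads on listed genes in freshly isolated ARVM and 0.0745%, 0.0774% and 0.0631% in PH-CM ARVM.

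Of the shuttle genes, only Mb lay outside the range of the cardiomyocyte markers. The listed markers had a median log2 fold change of -2.10, from -5.58 for Myh6 (the fast myosin heavy chain) to -0.47. None of the 11 fell more than Mb, 2 fell more than Ckm and Ckmt2 (Myh6 and the ventricular light chain Myl2, at -5.44), and 8 fell more than Ckb and Ak1. Set against the summed markers in the same library, Mb changed by -3.58 (SE 0.17) on the log2 scale, Ckmt2 by -2.23 (SE 0.07) and Ckm by -1.67 (SE 0.12). The same ratio changed by 1.17 (SE 0.22) for Ckb and by 2.28 (SE 0.12) for Ak1, so these genes rose relative to the summed markers. That sum is weighted to the most abundant markers, such as Myh6, and single markers differed. Actc1 had -1.89 beside -1.87 for Ckb, and Nppb had -0.76, as Ak1 did.

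**Figure D3:**
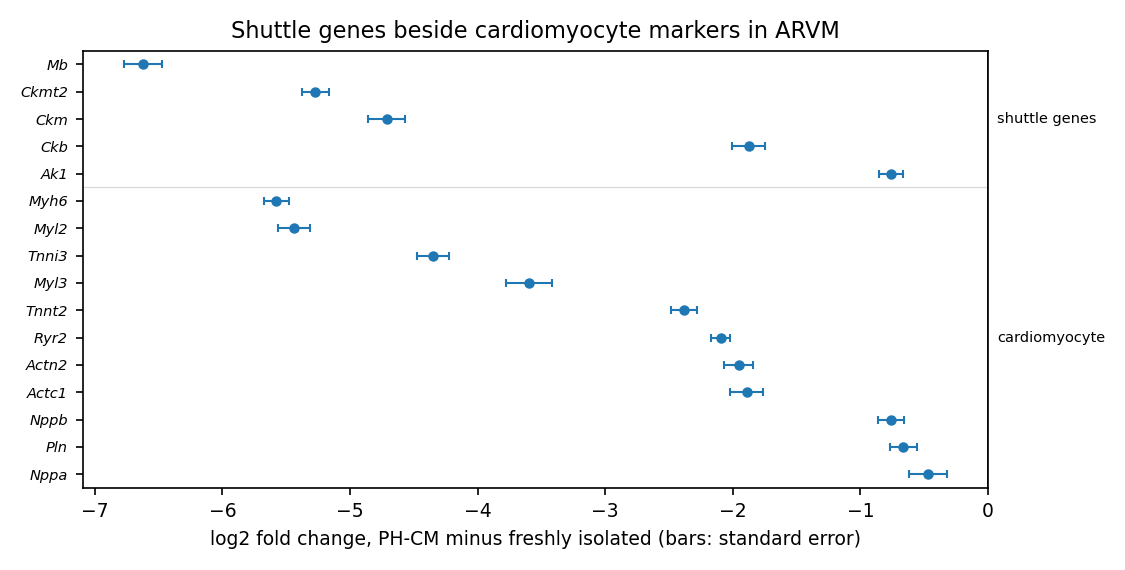
Log2 fold changes with standard errors of the 5 shuttle genes and of 11 cardiomyocyte markers in ARVM, PH-CM minus freshly isolated. Mb at -6.62 lies beyond all markers, Ckmt2 at -5.27 and Ckm at -4.71 beside the steepest, and Ak1 at -0.76 near the least changed.

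Of 7052 listed ARVM genes, 97.6% passed the limma threshold (adjusted p of 0.05) in either direction, 53.9% as higher and 43.7% as lower. The 5 genes were all lower, and since this contrast chose them nothing is read from that count. Around them, 11 lists of related genes held 90 symbols, of which 54 others were listed. Of these, 44 (81.5%) were called lower and 10 (18.5%) higher, with a median log2 fold change of -0.84 beside 0.37 over all listed genes. The lists were written with earlier results of these data known, and the shares are a description.

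Both listed genes of creatine synthesis and transport, of 3 sought, were called lower. Slc6a8, the creatine transporter, went from 2067 ± 264 to 1433 ± 98.4 (log2 fold change -0.52, SE 0.10), and Gamt, which methylates guanidinoacetate to creatine, had a log2 fold change of -0.65 (SE 0.10). Ak6, a nuclear adenylate kinase, was called lower too (-0.72, SE 0.09), beside -0.76 for Ak1.

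All 6 genes of mitochondrial ADP, ATP and phosphate exchange were called lower, with a median of -1.37. Slc25a4, the muscle form of the ADP/ATP carrier, went from 120386 ± 1903 to 18513 ± 754 (log2 fold change -2.70, SE 0.08), whereas Slc25a5, the carrier form of proliferating cells, had -0.61. The outer membrane channel Vdac1 had -1.65. Among the ATPases the shuttle serves, 5 of 6 listed were lower. They included Myh6 and Atp2a2 (the sarcoplasmic reticulum calcium pump, -2.73), while Myh7, the slow myosin heavy chain, was higher, from 42441 ± 2958 to 59891 ± 7213 (0.49, SE 0.11). The M-band genes Myom2 (-2.47) and Myom1 (-1.99), whose proteins sit where muscle creatine kinase is bound, were lower.

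Genes that handle AMP were mixed. Of 9 listed genes of the purine nucleotide cycle and salvage, 6 were called lower, among them Adk (adenosine kinase, -1.04) and Hprt1 (-1.13), and 3 were higher, among them Nt5e, which makes adenosine outside the cell (0.93), and Adss (0.998). The muscle AMP deaminase Ampd1 had -2.99 (SE 1.06). Its call was lost without con4 (adjusted p = 0.0536 from limma), con5 (0.0501), con6 (0.0576) or ha2 (0.0580). With all libraries, the Ampd1 call was lost at a pseudocount of 0.1 (adjusted p = 0.0709 from limma) and in limma without trend (0.0511). Ampd1 was not tested at a minimum mean of 50. All 5 listed subunits of the AMP-activated kinase were lower, from -0.39 for Prkaa1 to -1.76 for Prkaa2, the catalytic form prominent in muscle. Of 7 listed regulators 6 were lower, among them Ppargc1a (-1.14), a coactivator of mitochondrial genes, its partner Esrra (-0.81) and the hypoxia-inducible factor Epas1 (-1.12). Mef2a, a muscle transcription factor, was higher (0.50). The call of Nrf1 (-0.32) was lost without con4, con5, con6, ha2 or ha209, at adjusted p = 0.0625 to 0.110 from limma. That of Hif1a (-0.21) was lost without con6 (adjusted p = 0.0615 from limma) or ha2 (0.0522).

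Myoglobin is a heme protein, and genes of heme synthesis and turnover showed smaller differences. Of 10 listed, 7 were lower and 3 higher. Alas1, the first enzyme of heme synthesis in non-erythroid cells, went from 4397 ± 448 to 1473 ± 193 (-1.58, SE 0.11). Hmox1, which breaks heme down, had -0.87, with 24764 in ha209 beside 14924 in ha2 and 13952 in ha211. Blvra (0.70), Cyb5r3 (0.59) and Cpox (0.38) were higher. The globin Cygb, found in fibroblast-like cells, was higher, from 323 ± 31.1 to 604 ± 152 (0.87, SE 0.20), a call lost in the unequal-variance test of the deposited values (adjusted p = 0.0815). The calls of Hmox1 (adjusted p = 0.0600) and Blvrb (0.0529) and, of the regulators, Mef2d (0.0782), Nrf1 (0.0740) and Hif1a (0.0580) were lost in that test as well. The call of Blvrb, a biliverdin reductase (-0.24), was also lost without con5 (adjusted p = 0.0622 from limma) or ha211 (0.0537). The hemoglobin genes were without reads after culture, at least 1274-fold lower for Hba1, 1287-fold for Hbb and 217-fold for Hbb-b1, taking 3 reads over the group as the floor. They have near-identical copies, so that the split of reads among them is uncertain.

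The genes whose profile over the 6 libraries was nearest were found by the Euclidean distance between centred log2(value + 1) values among 6904 genes. For Mb the first 3, Cyp11a1, LOC689064 and RGD1306750, were at 0 in every PH-CM library, with mean counts of 121, 80.7 and 126 in freshly isolated ARVM, and so their fold changes depend on the added constant. Next came Pgam2, the muscle phosphoglycerate mutase (17379 to 235, log2 fold change -6.22), and Cox8b, the muscle form of a cytochrome c oxidase subunit (82564 to 767, -6.76). Nearest to Ckm were Doc2g, Eno3 (the muscle enolase) and Tnni3 (cardiac troponin I), and nearest to Ckmt2 were Dhrs7c, Myl2 and Eno3. Ckb lay nearest to Bdh1, Fitm1 and Ssmem1, and Ak1 to Mtmr14, Smarca2 and Rbfa. Ckmt1b lay nearest to Cnn1, a calponin of smooth muscle, Mmp23 and Rrm2, at distances of 0.83, 1.05 and 1.26. Their mean counts in freshly isolated ARVM were 3.86, 3.52 and 6.31, beside 3.51 for Ckmt1b. These matches therefore depend on the added constant and on few reads, and no relation is read from them.

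In Cfib none of the 5 genes and no creatine kinase was listed, so muscle and brain isoforms could not be compared there. Of the 2115 listed genes 97.5% passed the limma threshold between PH and CO, 58.2% as higher and 39.4% as lower. Of the 90 symbols 9 were listed, 7 (77.8%) called higher and 2 (22.2%) lower. Of the 12 cardiomyocyte, 8 endothelial and 7 erythroid markers 0 were listed. The 4 listed fibroblast markers were all called higher, with a summed signal of 2225 to 3129 in CO and 7245 to 7575 in PH Cfib, and of the 5 listed smooth muscle markers 4 were higher and 1 lower (114.727 to 149.995 and 247.605 to 256.306). The macrophage and leukocyte list had 1 listed gene, which was higher, and the neuron and Schwann cell list 1, which was lower. The part of these markers in the Cfib values was not tested, and the depth behind the Cfib signal is unknown.

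The creatine transporter SLC6A8 had a signal of 4.57, 4.17 and 1.66 in CO Cfib 1, 2 and 3 and of 8.56, 8.99 and 7.89 in PH Cfib 1, 2 and 3. As for 100% of the listed Cfib genes the groups did not overlap, and CO Cfib 3 was the lowest library (log2 fold change 1.16, SE 0.28, adjusted p = 0.00671 from limma). The mitochondrial adenylate kinase AK4 had 31.5, 49.9 and 36.9 in CO Cfib, and in PH Cfib it had 9.63, 12.6 and 10.7. CO Cfib 2 was the highest library, and the difference was a log2 fold change of -1.74 (SE 0.18, adjusted p = 0.000185 from limma). The listed Cfib genes were selected by a p-value for this contrast, so these adjusted p-values restate that selection and add no support. The globin CYGB had 5.08, 6.92 and 6.30 in CO and 21.1, 20.5 and 19.6 in PH Cfib, and was higher by 1.60 (SE 0.11). ATP1B1 (0.87), CYB5R3 (0.82), MEF2A (0.74), AMPD2 (0.37) and PRKAB1 (0.29) were called higher.

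The Cfib values shift as a whole with their scaling. After rescaling by the median of ratios the median log2 fold change moved by -0.27, and the calls of AMPD2 (0.10, adjusted p = 0.389 from limma) and PRKAB1 (0.01, adjusted p = 0.881 from limma) were lost, while the other 7 genes kept theirs. This rescaling centres the listed genes, which were chosen as different and had a median log2 fold change of 0.33 before it. Some negative shift therefore follows from the centring, and it cannot show which scaling is right. Beside the ARVM values, Slc6a8 was lower in PH-CM ARVM and higher in PH Cfib, and Cygb was higher in both. These are different species and contrasts in tables normalized separately, and the difference between them was not tested.

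**Figure D4:**
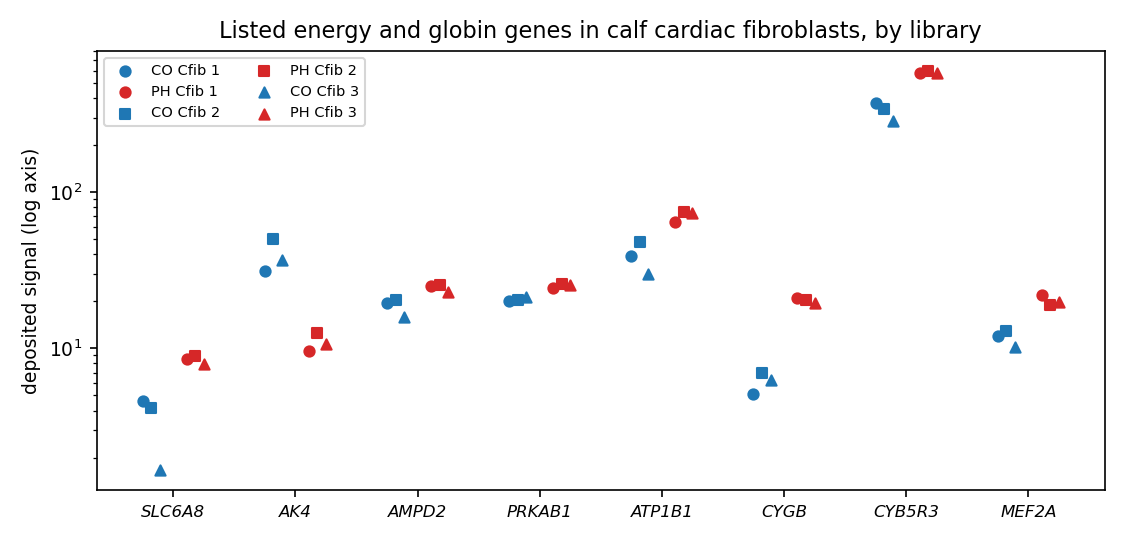
Deposited signal of 8 listed energy and globin genes in 3 CO (blue) and 3 PH (red) Cfib libraries, on a log axis. AK4 is lower and the other 7 genes are higher in PH Cfib, with CYGB between 5.08 and 6.92 in CO and between 19.6 and 21.1 in PH Cfib.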

How the data were processed

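Per the labels and the study's methods, RNA was depleted of ribosomal RNA and sequenced, and the authors used HISAT2, StringTie and DESeq2 with the builds rn6 and bosTau8. They kept genes with an expression value above 1 in a condition and a p-value under 0.05, so both deposited tables hold selected genes only. The authors deposited a signal for each library. The ARVM signal is the read count over a size factor of the library (100% of values whole multiples within 0.01 reads). The deposited Cfib signal is scaled by a unit not given in the sources used here, and no reads or depth were recovered from it.

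The contrasts were fitted in R 4.3.3 with limma 3.58.1 and a trend in eBayes, on log2(value + 1), adjusted by Benjamini-Hochberg over all listed genes at 0.05. A fold change on this scale understates low genes. Recovered reads were also fitted with edgeR 4.0.16 and DESeq2 1.42.0. The genes, lists and the rule for naming were chosen with earlier results of these data known. The rule named the 5 genes, listed pathway and marker genes, the 5 profiles nearest to Mb and 3 nearest to each other gene, and the 5 largest falls. Alternatives covered pseudocounts (0.1 and 10), minimum means (50 for ARVM, 5 for Cfib), median of ratios, limma without trend, a minimum log2 fold change of 1, an unequal-variance test, each library left out and a replicate block. The scripts were tested on simulated data. The floor of 3 reads used for the hemoglobin genes covers counting error only. Promoters are from RefSeq, and transcript lengths were not used here. Some listed genes are counted but not reported here by name.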

Additional observations from a re-analysis of the deposited data

How the results depend on the processing

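The log2 fold changes of the 5 genes and of Ckmt1b kept their sign under every alternative run for them. So did the changes of Ckm over Ckb and of Ckmt2 over Ckmt1b. The larger share of Cfib calls went from higher to lower after rescaling by the median of ratios. With a minimum absolute log2 fold change of 1, 3405 ARVM genes (66.9% higher) and 720 Cfib genes were called, against 6882 (55.2% higher) and 2063. The log2 fold change of Ckmt1b was 8.61 with a pseudocount of 0.1 and 5.42 with 10, against 7.36, and the log2 change of Ckmt2 over Ckmt1b was -13.88 and -10.68, against -12.63. These values follow the constant, as Ckmt1b had few reads before culture.

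Leaving out each library in turn gave log2 fold changes of -6.79 to -6.49 for Mb, -5.37 to -5.18 for Ckmt2, -4.86 to -4.58 for Ckm, -1.98 to -1.73 for Ckb and -0.87 to -0.69 for Ak1. It gave 6.48 to 7.81 for Ckmt1b and -13.13 to -11.72 for Ckmt2 over Ckmt1b, the values nearest 0 being those without con4, the library with no Ckmt1b read. The genes called numbered 6452 to 6695 in ARVM and 1910 to 2052 in Cfib. With edgeR, Mb changed by -6.62, Ckmt2 by -5.29, Ckm by -4.72, Ckb by -1.89 and Ak1 by -0.79, and 6815 ARVM genes were called (DESeq2 6668). Rescaling Cfib by the median of ratios called 1709 genes, 840 higher and 869 lower, against 1230 and 833. The rescaling centres genes chosen as different, more of them higher, so some shift towards lower calls follows from it. Any other cause was not tested.

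No paired analysis was possible for ARVM because the groups share no replicate numbers. In Cfib the replicate block called 1983 genes, 1982 of them shared with the fit without it. Deviations of equal-numbered libraries correlated at 0.258, 0.0312 and 0.259, and those of unequal-numbered libraries at -0.245 to 0.102. The labels state no pairing, and the numbers were not taken as one.

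Each group has 3 libraries, and the tables hold genes chosen for the contrast, so high shares of calls are built in.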
